A study of Mus musculus with 12 samples.

Results

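The interleukin-1 (IL-1) family was followed here through 10 genes, the ligands Il1a, Il1b, Il33 and Il18, the receptor antagonist Il1rn, the receptors Il1r1, Il1rl1 and Il1rap, the decoy receptor Il1r2 and the soluble inhibitor Il18bp. They were chosen by name, as the rows of the gene table with these symbols, and all 10 were found among its 54833 genes. The study compared aged with young mice in the response to intracerebral hemorrhage (ICH), with 3 RNA-seq libraries in each of 4 groups, the sham and the ICH group of either age. All mice were wild-type (WT) C57BL/6 males, young mice of 8 to 10 weeks and aged mice of 20 to 22 months. ICH was induced with type Ⅳ collagenase, which digests the basement membrane of vessels, and sham mice received saline through the same surgery. At 24 h, after perfusion with phosphate-buffered saline, the perihematomal part of the ipsilateral caudate putamen was dissected. Each library was made from tissue of 2 or 3 mice pooled together, so the spread between libraries is a spread between pools.

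IL-1α, encoded by Il1a, and IL-1β, encoded by Il1b, bind the receptor IL-1R1, which recruits the accessory chain encoded by Il1rap and signals through MyD88 and IRAK kinases to NF-κB and MAP kinases. The same receptor is blocked by the antagonist IL-1RN, while the decoy receptor IL-1R2 takes up IL-1 without signalling. IL-33 is a nuclear cytokine that is set free by damaged cells and binds ST2, encoded by Il1rl1, with the same accessory chain, and IL-18 is held in check by the IL-18 binding protein. After brain injury microglia and infiltrating leukocytes are the textbook sources of IL-1β, and in the mouse brain IL-33 is made mainly by astrocytes and oligodendrocytes.

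The libraries held between 28410896 and 37785160 counted reads. Levels are given as CPM, which are counts scaled to a common normalised library size, and levels of different genes are compared only as FPKM, which also divides by transcript length. Some libraries stood apart in their markers. Young ICH 3 and aged ICH 1 and 2 were high in choroid plexus genes, which reached a summed 6141 CPM in the young ICH group and 2733 CPM in the aged ICH group, against at most 1052 CPM in any sham library. Markers of striatal projection neurons, which check the dissected tissue, were detected in every library, with summed levels of 1064 to 2154 CPM in sham and 249 to 1497 CPM in ICH libraries. Young ICH 1 was high in T cell markers. Aged sham 3 was high and aged sham 2 low in several inflammatory genes, as described with each gene. In bulk tissue, fewer cells of a type and less RNA per cell cannot be told apart.

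The promoters of 4 members are shown first, since these genes carry the main contrasts. Il1a and Il1b are neighbours in the same orientation on chromosome 2 whose log2 CPM had a Pearson r of 0.144 over the 12 libraries. Il1rn is the antagonist gene, whose level ran closest to that of Il1b, and Il1r1 was the receptor gene called in every fit. RefSeq promoter windows of GRCm38.p6 were found for all 10 members, with 15 windows in all, each from 250 bases before to 50 bases after a start. The 250 bases before the start are printed 5′ to 3′ on the strand of the gene, and capitals mark matches to the motifs searched. Il1a is shown at chr2:129309973-129310222 and Il1b at chr2:129371140-129371389, both on the minus strand. Il1rn is shown at its first start, chr2:24336610-24336859, and Il1r1 at its first, chr1:40224830-40225079, and its second start, chr1:40266336-40266585, all on the plus strand.
Il1a: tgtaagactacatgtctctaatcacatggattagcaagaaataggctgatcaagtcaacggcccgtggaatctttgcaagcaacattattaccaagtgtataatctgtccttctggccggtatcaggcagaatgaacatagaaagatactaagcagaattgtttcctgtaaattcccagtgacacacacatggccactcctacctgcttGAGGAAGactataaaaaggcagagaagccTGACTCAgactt
Il1b: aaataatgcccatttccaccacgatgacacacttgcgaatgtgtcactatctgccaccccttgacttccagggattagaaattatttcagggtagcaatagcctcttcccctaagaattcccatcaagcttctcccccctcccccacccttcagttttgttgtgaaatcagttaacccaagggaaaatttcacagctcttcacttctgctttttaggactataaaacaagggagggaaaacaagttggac
Il1rn, first start: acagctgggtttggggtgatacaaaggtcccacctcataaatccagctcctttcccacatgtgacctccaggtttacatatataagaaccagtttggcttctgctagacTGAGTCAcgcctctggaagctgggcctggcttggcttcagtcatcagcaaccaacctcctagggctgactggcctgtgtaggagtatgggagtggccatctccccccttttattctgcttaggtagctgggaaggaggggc
Il1r1, first start: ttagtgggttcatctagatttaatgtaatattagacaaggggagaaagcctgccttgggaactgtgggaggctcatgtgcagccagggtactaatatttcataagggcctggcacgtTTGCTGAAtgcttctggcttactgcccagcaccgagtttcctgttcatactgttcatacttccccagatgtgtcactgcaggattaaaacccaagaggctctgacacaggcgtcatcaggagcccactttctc
Il1r1, second start: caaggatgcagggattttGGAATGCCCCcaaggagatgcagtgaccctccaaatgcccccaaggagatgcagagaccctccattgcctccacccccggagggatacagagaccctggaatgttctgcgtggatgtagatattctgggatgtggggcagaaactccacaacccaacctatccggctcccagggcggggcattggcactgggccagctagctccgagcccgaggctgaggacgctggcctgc

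The motifs searched on both strands were the 10-base NF-κB motif, AP-1 (TGANTCA), C/EBP (TTGCNNAA), the interferon-stimulated response element (GAAA and GAAA with any 2 bases between) and PU.1 (GAGGAAG). None of them overlapped another in the sequences shown. Positions are counted so that the base before the start is at -1. Il1a held an AP-1 match from -12 to -6 and a PU.1 match from -41 to -35. Its neighbour Il1b held none of the 5 motifs in its window. Il1rn has 3 starts, and its window at start 1 held an AP-1 match from -141 to -135. Its windows at starts 2 and 3, which are not printed here, held none of the 5 motifs. Il1r1 held a C/EBP match from -133 to -126 at its first start and an NF-κB match from -232 to -223 at its second. Over the 15 windows of the members, 1 held NF-κB, 2 AP-1, 4 C/EBP, 1 the interferon-stimulated response element and 2 PU.1. Among all 32851 windows the shares were 8.46%, 7.81%, 10.8%, 3.44% and 13.6%. These are matches of letters only, and a window without a match says nothing about the factor.

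Of the 10 members, 5 rose in young ICH vs. young sham, namely Il1rn, Il1r2, Il1r1, Il33 and Il18bp. In aged ICH vs. aged sham 4 rose, namely Il1r2, Il1r1, Il33 and Il18bp. No member fell at either age. A gene was called where the Benjamini-Hochberg adjusted *P* of edgeR's quasi-likelihood test, over all 21495 genes tested, was under 0.05. This called 9.89% of all genes as higher in young mice and 7% in aged mice. The median log2FC of the members was 0.86 in young and 0.77 in aged mice, and that of all genes 0.02 and 0.00. The study's methods used a criterion of FC > 1.5 or < 0.67 with *P* under 0.05 in DESeq2. With these thresholds applied here to the unadjusted *P* of edgeR, 5 members passed at each age. As higher, 8.66% of all genes passed in young and 7.24% in aged mice. The 5 calls in young mice became 3 without any 1 of the young sham libraries or without young ICH 3, and also without the 3 libraries high in choroid plexus genes. The 4 calls in aged mice became 1, Il1r1, without those 3 libraries or without both aged sham 2 and 3. All libraries of the ICH group lay above all of the sham group for 7 members in young and 6 in aged mice, against 18.5% and 17.8% of all genes.

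**Figure D1:**
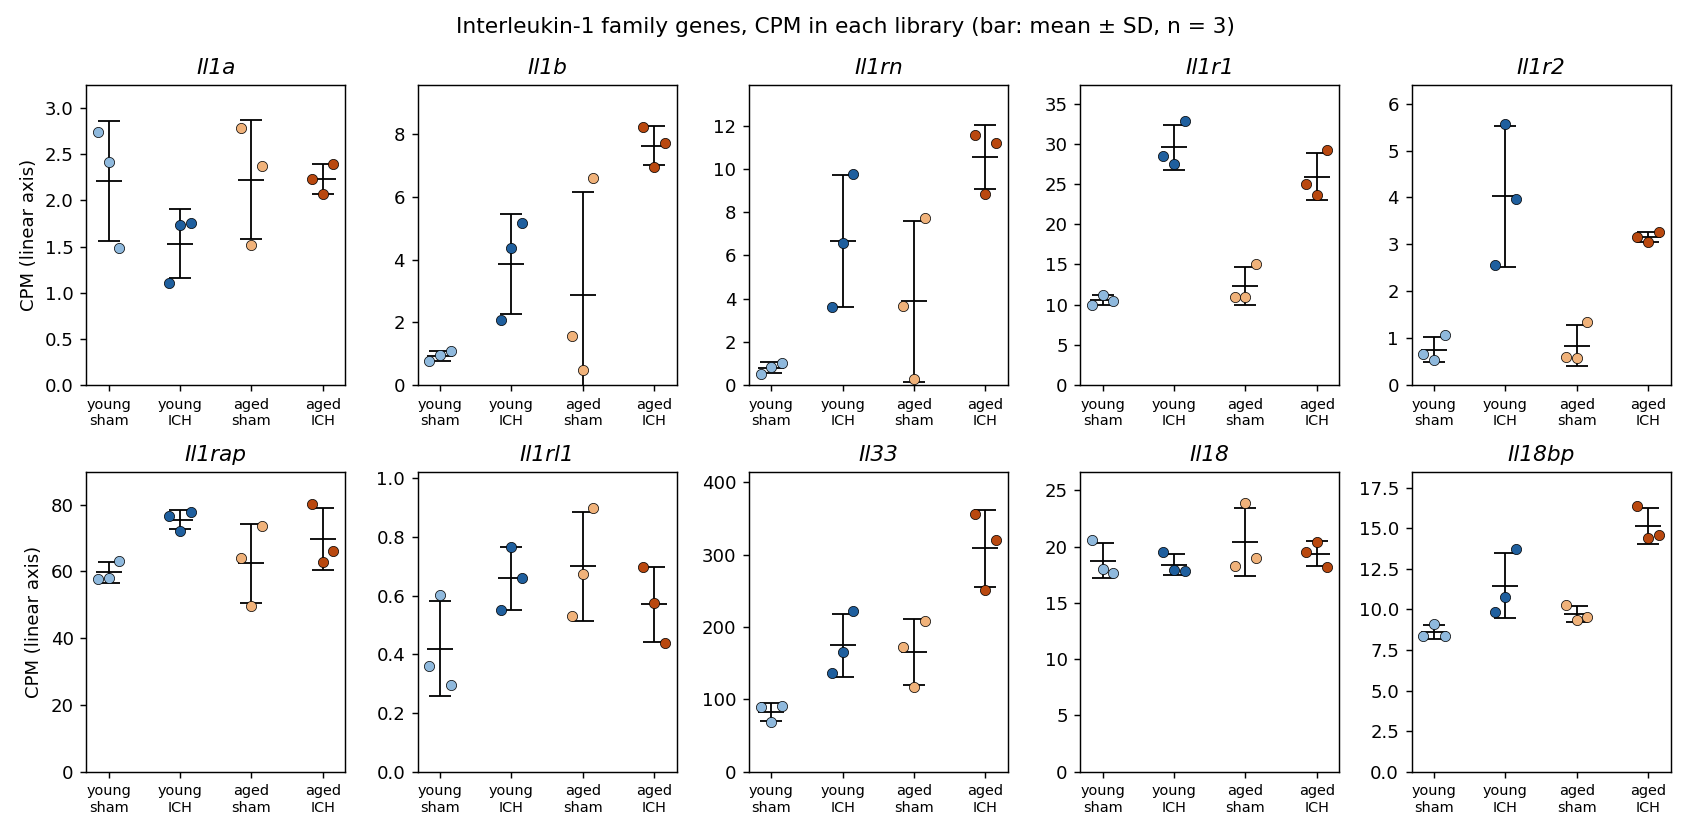
Each panel plots 1 gene in CPM (linear axis from 0) in the 4 groups. Points are libraries and the bar is the mean ± SD of 3 libraries. Il1r1 and Il1r2 separate ICH from sham at both ages, Il18 stays between 17.7 and 23.9 CPM in every library, and the aged sham libraries are spread widely for Il1b and Il1rn.

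Il1b, the inducible ligand, was low in young sham mice, at 0.774, 0.952 and 1.09 CPM, and reached 2.09, 4.36 and 5.17 CPM in young ICH mice. Every young ICH library lay above every young sham library. The log2FC was 2.04 ± 0.69 (SE), which did not pass (adjusted *P* = 0.0604, edgeR). In aged sham mice Il1b was at 1.56, 0.472 and 6.62 CPM, a spread of 3.28 CPM (SD, n = 3), and in aged ICH mice at 8.22, 6.97 and 7.73 CPM. The ICH libraries were again all higher, but aged sham 3 lay close to them. The log2FC of 1.39 ± 0.63 did not pass in edgeR (adjusted *P* = 0.169).

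The aged value of Il1b and the calls at both ages turned on the aged sham libraries, which enter the shared estimate of spread. Without aged sham 2 the aged log2FC was 0.90, and without aged sham 3 it was 2.91 and passed (adjusted *P* = 0.00768, edgeR), and the young log2FC of 2.04 passed too (adjusted *P* = 0.00822). In the fit of only the 2 young groups the young value also passed (2.05 ± 0.36, adjusted *P* = 0.0148, edgeR). With DESeq2 the young value passed and with limma on log2(FPKM + 1) the aged one.

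Il1rn, which encodes the antagonist of IL-1R1, was at 0.525, 0.856 and 1.02 CPM in young sham and at 3.63, 6.59 and 9.77 CPM in young ICH mice. The groups did not overlap. With a log2FC of 3.06 ± 0.78 it had the largest rise of the 10 members in young mice (adjusted *P* = 0.0197, edgeR). The call was lost without young sham 1, 2 or 3 or young ICH 3, at adjusted *P* of 0.0513 to 0.0721 in edgeR, and without the 3 libraries high in choroid plexus genes (2.68, adjusted *P* = 0.0899).

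In aged sham mice Il1rn was at 3.64, 0.27 and 7.73 CPM, and in aged ICH mice at 11.6, 8.84 and 11.2 CPM. As for Il1b, aged sham 3 was the highest and aged sham 2 the lowest of the sham libraries, and no ICH library reached down to them. The log2FC of 1.44 ± 0.68 did not pass (adjusted *P* = 0.188, edgeR). Without aged sham 2 it was 0.89 and without aged sham 3 it was 2.43, still short of the threshold, since the lowest adjusted *P* over all fits that left out 1 library was 0.0589. With limma on log2(FPKM + 1) it passed (0.89, adjusted *P* = 0.0455).

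Il1a, the constitutive ligand, did not follow its neighbour. It was at 2.74, 2.41 and 1.48 CPM in young sham, 1.1, 1.73 and 1.76 CPM in young ICH, 2.78, 1.52 and 2.37 CPM in aged sham and 2.23, 2.07 and 2.39 CPM in aged ICH mice. Sham and ICH libraries overlapped at both ages. The log2FC was -0.53 ± 0.28 in young (adjusted *P* = 0.209) and 0.00 ± 0.28 in aged mice (adjusted *P* = 0.995, edgeR). Across the 12 libraries the log2 CPM of Il1a and Il1b had a Pearson r of 0.144, against 0.968 for Il1b and Il1rn. With group means subtracted these values were 0.455 and 0.933. These are descriptions over libraries that share groups and depth.

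Il1r1, the signalling receptor, separated ICH from sham most cleanly. It was at 10, 11.2 and 10.4 CPM in young sham and 28.5, 27.5 and 32.8 CPM in young ICH mice. In aged mice it was at 10.9, 10.9 and 15 CPM after sham surgery and 25, 23.6 and 29.2 CPM after ICH. No ICH library came near a sham library, and aged sham 3 was again the highest of the shams. The log2FC was 1.49 ± 0.13 in young (adjusted *P* = 0.00043) and 1.08 ± 0.13 in aged mice (adjusted *P* = 0.00316, edgeR). Leaving out single libraries kept the young value between 1.41 and 1.55 and the aged value between 0.99 and 1.25, with every call kept.

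Il1r2, the decoy receptor, rose as well. Its level was 0.663, 0.539 and 1.06 CPM in young sham and 2.55, 5.56 and 3.97 CPM in young ICH mice. In aged mice it went from 0.596, 0.573 and 1.35 CPM in sham to 3.15, 3.05 and 3.27 CPM in ICH libraries. The groups did not overlap at either age, and the aged ICH libraries were the tighter ones. The log2FC was 2.42 ± 0.37 in young (adjusted *P* = 0.00241) and 1.89 ± 0.37 in aged mice (adjusted *P* = 0.00997, edgeR). An antisense gene, Gm16894, overlaps Il1r2 and had a highest count of 69, and no source used here says whether reads were counted by strand. The aged call was lost without the 3 libraries high in choroid plexus genes (1.95, adjusted *P* = 0.0948) and without both aged sham 2 and 3 (2.39, adjusted *P* = 0.0724, edgeR).

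Il1rap, the accessory chain shared by IL-1 and IL-33 receptors, was at 59.7 ± 3 CPM in young sham and 75.6 ± 3 CPM in young ICH mice (SD, n = 3). The highest young sham library, at 63.2 CPM, was below the lowest young ICH library, at 72.2 CPM. The log2FC of 0.34 ± 0.13 did not pass (adjusted *P* = 0.0802, edgeR), but did without aged sham 2 (adjusted *P* = 0.0304) and in the fit of only the young groups (adjusted *P* = 0.0224). In aged mice the groups overlapped, with 62.4 ± 11.9 CPM in sham and 69.8 ± 9.21 CPM in ICH libraries (SD, n = 3). There the log2FC was 0.16 ± 0.13 (adjusted *P* = 0.437, edgeR).

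Il33 was the most abundant member per length, with a mean of 64.2 FPKM over the 12 libraries, followed by Il18 with 18.6 FPKM and Il1rap with 5.90 FPKM. Il1b, Il1r2, Il1a and Il1rn had means of 2.05, 1.17, 1.04 and 1.01 FPKM, and the receptor gene Il1rl1 the lowest, 0.0855 FPKM. In CPM, Il33 was at 89.2, 68.2 and 91 in young sham and at 137, 165 and 222 in young ICH mice. It was at 172, 117 and 208 CPM in aged sham and at 356, 251 and 320 CPM in aged ICH mice. ICH libraries lay above sham libraries at both ages, and aged sham libraries reached the young ICH range. The log2FC was 1.08 ± 0.22 in young (adjusted *P* = 0.00801) and 0.90 ± 0.22 in aged mice (adjusted *P* = 0.0233, edgeR). The aged call was lost without aged sham 1 or 2 or aged ICH 1 or 3, with log2FC of 0.70 to 0.93 and adjusted *P* of 0.0689 to 0.0995 in edgeR. It was also lost without the 3 libraries high in choroid plexus genes (adjusted *P* = 0.09) and without both aged sham 2 and 3 (adjusted *P* = 0.171, edgeR).

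Astrocyte markers had a median sum of 5131 CPM in young sham, 6023 in young ICH, 5441 in aged sham and 5727 in aged ICH mice. For oligodendrocyte markers these medians were 6640, 6996, 6712 and 4894 CPM. The oligodendrocyte sum was lowest in the aged ICH group, where Il33 was highest, and 3 of its 8 markers fell in aged ICH vs. aged sham. Of the 7 astrocyte markers 3 rose in young mice, and in aged mice 2 rose, Gfap (1.13) and Aldh1l1 (0.54), and Gja1 fell (-0.51). Of all genes, 9.89% rose and 9.23% fell in young mice, and 7% rose and 6.15% fell in aged mice. The part of astrocytes and oligodendrocytes in the values of Il33 was not tested.

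Il1rl1, the IL-33 receptor, rested on counts of 9 to 30 per library. It was at 0.359, 0.603 and 0.297 CPM in young sham, 0.551, 0.766 and 0.662 CPM in young ICH, 0.53, 0.674 and 0.898 CPM in aged sham and 0.697, 0.576 and 0.44 CPM in aged ICH mice. The groups overlapped at both ages. The log2FC was 0.65 ± 0.33 in young (adjusted *P* = 0.194) and -0.29 ± 0.32 in aged mice (adjusted *P* = 0.583, edgeR). Genes of mast cells and type 2 lymphoid cells, which carry ST2, summed to 0.15 to 1.16 CPM over 8 genes, and Cma1 was at 0 in all libraries. None of the 8 passed the filter on low counts.

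Il18, whose product is cleaved to its active form by caspase-1, was at 18.8 ± 1.57 CPM in young sham, 18.4 ± 0.936 CPM in young ICH, 20.4 ± 3.04 CPM in aged sham and 19.4 ± 1.08 CPM in aged ICH mice (SD, n = 3). All neighbouring groups overlapped. The log2FC was -0.03 ± 0.11 in young (adjusted *P* = 0.871) and -0.07 ± 0.11 in aged mice (adjusted *P* = 0.691, edgeR). Il18 overlaps Bco2 on the opposite strand, whose counts reached 142 against 537 to 745 for Il18, so its values are uncertain where strand was not used.

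Il18bp, the inhibitor of IL-18, was at 8.35, 9.10 and 8.38 CPM in young sham and 9.87, 10.8 and 13.7 CPM in young ICH mice. In aged mice it was at 10.3, 9.37 and 9.52 CPM after sham surgery and 16.4, 14.4 and 14.6 CPM after ICH. ICH libraries were higher at both ages without overlap, by a small margin in young and a wider one in aged mice. The log2FC was 0.41 ± 0.12 in young (adjusted *P* = 0.0364) and 0.64 ± 0.12 in aged mice (adjusted *P* = 0.00891, edgeR). The young call was lost without any 1 of the young sham libraries, young ICH 3 or aged ICH 3, with the replicate block, without the filter on low counts and in the fit of only the 2 young groups, at adjusted *P* of 0.0505 to 0.126 in edgeR. It was also lost without the 3 libraries high in choroid plexus genes (0.26, adjusted *P* = 0.16) and without both aged sham 2 and 3 (adjusted *P* = 0.0655). The aged call was lost without the 3 libraries high in choroid plexus genes (adjusted *P* = 0.0567) or without both aged sham 2 and 3 (adjusted *P* = 0.186). Il18bp lies on the strand opposite to Numa1, whose counts reached 4901, so reads of the 2 genes could be mixed where strand was not used.

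**Figure D2:**
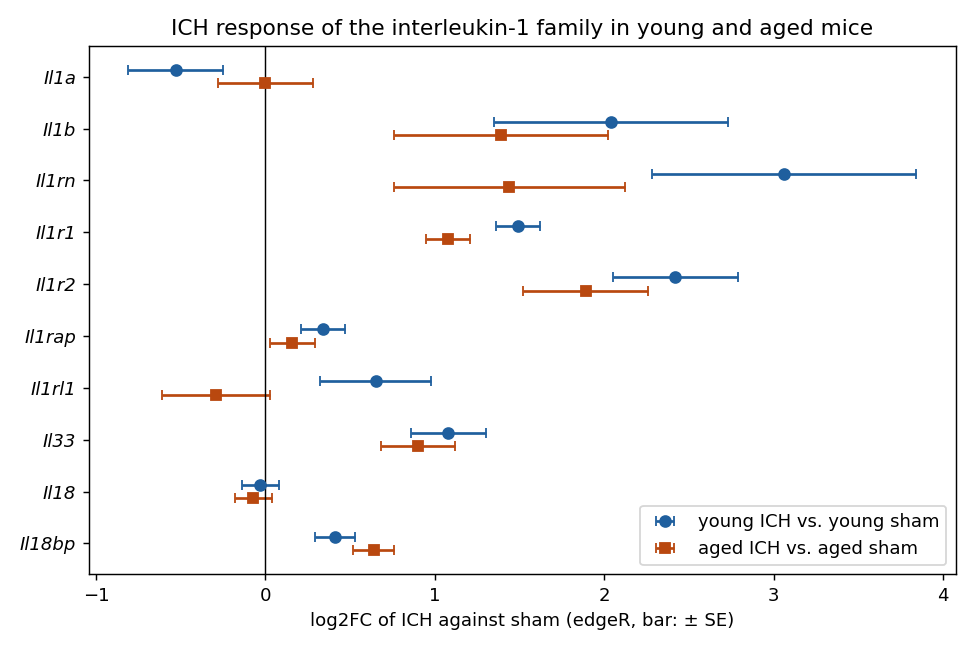
The log2FC of ICH against sham (x axis, edgeR, bars ± SE) is plotted for each gene (y axis), with circles for young and squares for aged mice. The values of Il1b, Il1rn, Il1r1, Il1r2 and Il33 lie right of 0 at both ages, from 0.90 to 3.06, Il18 lies at -0.03 and -0.07, and Il1rl1 lies at 0.65 in young and -0.29 in aged mice.

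The balance of inhibitor and agonist transcripts was described by ratios within each library, as log2 of (CPM + 0.1) over (CPM + 0.1). Il1rn to Il1b was at -0.48, -0.14 and -0.08 in young sham and 0.77, 0.58 and 0.91 in young ICH libraries. All young ICH libraries were higher, by 0.99 (two-sided exact permutation *P* = 0.1, the smallest that 3 against 3 can give). In aged mice the ratio was 1.18, -0.63 and 0.22 in sham and 0.49, 0.34 and 0.54 in ICH libraries, which overlapped (difference 0.20, exact permutation *P* = 0.7). The aged difference turned to -0.24 without aged sham 2 and to -0.12 on FPKM, and the young one was 0.55 on FPKM.

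Il18bp to Il18 was higher in every ICH library than in the shams at both ages. The difference was 0.42 in young and 0.69 in aged mice, each at the smallest exact permutation *P* of 0.1. In young mice the groups were barely apart, with young ICH 1 at -0.97 and young sham 2 at -0.98. For Il1r2 to Il1r1 the difference was 0.77 in young mice, where the groups overlapped (exact permutation *P* = 0.2), and 0.80 in aged mice, where they did not (exact permutation *P* = 0.1). Adjusted over the 6 ratio tests, the lowest *P* was 0.15. These ratios could not pass the threshold in a design of this size.

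**Figure D3:**
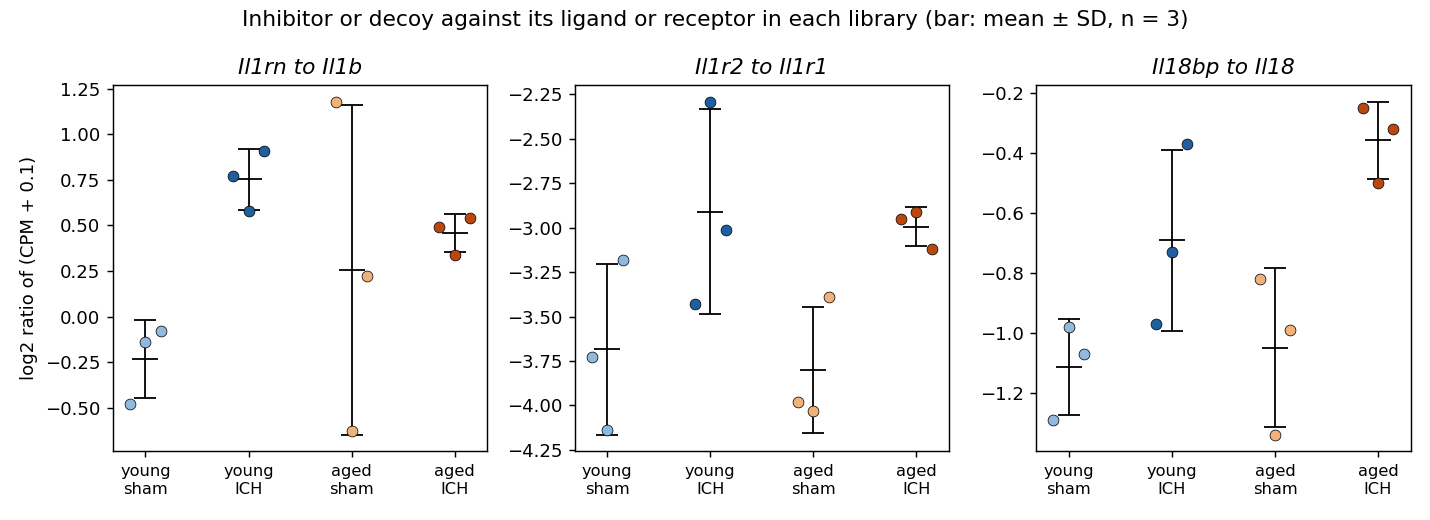
Each panel plots the log2 ratio of (CPM + 0.1) of 2 genes (y axis, a separate range per panel) in the 4 groups, with points for libraries and the bar for mean ± SD (n = 3). The young ICH libraries lie above the young sham libraries for Il1rn to Il1b, by 0.99 on average, and the aged sham libraries span from -0.63 to 1.18, so that the aged difference of 0.20 becomes -0.24 without aged sham 2.

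Age was compared next, first without hemorrhage. In aged sham vs. young sham no member was called by edgeR, where 0.102% of all genes were, and 4 had an unadjusted *P* under 0.05. These 4, Il33, Il1rn, Il1b and Il1rl1, also met the FC criterion as higher, against 2.82% of all genes. Il33 was the clearest of these, with all aged sham libraries above all young sham libraries and a log2FC of 1.0 ± 0.22 (unadjusted *P* = 0.000847, adjusted *P* = 0.16, edgeR). It passed with DESeq2 (adjusted *P* = 0.00171) and in edgeR without the filter on low counts (adjusted *P* = 0.0199). Il1rn and Il1b had log2FC of 2.29 ± 0.78 and 1.63 ± 0.70 (adjusted *P* = 0.28 and 0.375, edgeR), with aged sham 2 below the young range for both genes. Without aged sham 2 the value of Il1rn was 2.84 and passed (adjusted *P* = 0.0469, edgeR). Without aged sham 3 those of Il1rn and Il1b were 1.30 and 0.12.

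Il1rl1 had a log2FC of 0.74 ± 0.33 with age in sham mice (adjusted *P* = 0.391, edgeR), and the groups overlapped. Il18bp was higher in every aged sham library, by a log2FC of 0.18 ± 0.12 (adjusted *P* = 0.585, edgeR). Red blood cell markers also differed between the sham groups, with sums of 27.8 to 39.5 CPM in aged and 5.20 to 22.4 CPM in young sham libraries. All 5 were higher in every aged sham library, as 9.81% of all genes were, with a median log2FC of 1.58, and none was called by edgeR. In young ICH vs. young sham 3 of the 5 rose, against 9.89% of all genes, with sums of 29 to 121 CPM in young ICH libraries. In aged ICH libraries the sums were 24.3 to 82 CPM with none called, against 7% of all genes as higher. The part of red blood cells in the values of the members was not tested.

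Il33 and Il18bp were the 2 members whose sham groups did not overlap, against 9.81% of all genes in that direction. The remaining members, Il1a, Il1r1, Il1r2, Il1rap and Il18, had log2FC between 0.00 and 0.22.

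In aged ICH vs. young ICH no member was called by edgeR either, where 0.0558% of all genes were, and 2 had an unadjusted *P* under 0.05. These were Il33, at 0.82 ± 0.22 (adjusted *P* = 0.256), and Il18bp, at 0.40 ± 0.12 (adjusted *P* = 0.311, edgeR). Il33 passed with DESeq2 (adjusted *P* = 0.0255) and was the 1 member that met the FC criterion, as 2.21% of all genes did in that direction. Il33, Il18bp, Il1b and Il1a were higher in every aged ICH library than in every young ICH library, 4 of 10 members against 6.9% of all genes in that direction. For Il1b the lowest aged ICH library, at 6.97 CPM, was above the highest young ICH library, at 5.17 CPM, and the log2FC of 0.98 ± 0.62 did not pass (adjusted *P* = 0.654, edgeR). For Il1rn, 8.84 CPM in the lowest aged ICH library was below 9.77 CPM in young ICH 3.

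The 2 responses to ICH, which share no library, were compared as the interaction of age and ICH, given as the aged minus the young log2FC. No member was called by edgeR, DESeq2 or limma, 1 had an unadjusted *P* under 0.05 in edgeR, and 0% of all genes were called by edgeR. The difference was -0.41 ± 0.19 for Il1r1 (unadjusted *P* = 0.0477) and -0.94 ± 0.46 for Il1rl1 (unadjusted *P* = 0.0626, edgeR). For Il1rn it was -1.62 ± 1.02 and for Il1b -0.65 ± 0.93. Without aged sham 3 these became -0.63 and 0.86, so the direction for Il1b turned on 1 library. For Il33 the difference was -0.18 ± 0.31 and for Il18bp 0.23 ± 0.17.

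Summed neutrophil and monocyte and macrophage markers were higher in every ICH than in every sham library of the same age. The same held for Il1b, Il1rn, Il1r1, Il1r2, Il33 and Il18bp, and for 18.5% of all genes in young and 17.8% in aged mice. Il1rap separated in this way only in young mice. Il18, Il1a and Il1rl1 showed no such rise. Over 10 neutrophil markers the summed level was 10.2 to 12.7 CPM in young sham, 19.8 to 36.2 in young ICH, 14.6 to 26.1 in aged sham and 37 to 52.9 in aged ICH libraries. For 10 monocyte and macrophage markers these ranges were 126 to 144, 289 to 372, 111 to 223 and 305 to 383 CPM. Of the 10 monocyte and macrophage markers 6 rose in young and 5 in aged mice, and of the 8 neutrophil markers tested 6 and 5, against 9.89% of all genes in young and 7% in aged mice. No marker of either list was at 0 in a whole group. Aged sham 3, high in Il1b and Il1rn, had the highest sum of both lists among the shams, at 26.1 and 223 CPM, and aged sham 2, low in both genes, the lowest of the monocyte and macrophage list, at 111 CPM. The neutrophil sum of aged sham 2, at 16.2 CPM, was however above that of the other shams except aged sham 3. Microglial markers had median sums of 382 and 402 CPM in young sham and ICH libraries. In aged sham and ICH libraries these were 409 and 411 CPM. Of the 8 markers 2, P2ry12 and Siglech, fell at both ages, against 9.23% of all genes in young and 6.15% in aged mice. Endothelial markers, of cells that carry IL-1R1, had medians of 340 and 452 CPM in young and of 395 and 404 CPM in aged mice. Of the 8 endothelial markers 5 rose in young and 3 in aged mice, against 9.89% and 7% of all genes. Among these, Cdh5 had log2FC of 0.77 and 0.72 and Pecam1 of 0.76 and 0.62. No endothelial marker was called as lower. In aged mice 3 of the 8 had a log2FC below 0, Slco1a4 (-0.23), Tek (-0.22) and Abcb1a (-0.17), and in young mice 1, Slco1a4 (-0.18). The part of these cell types in the results was not tested.

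**Figure D4:**
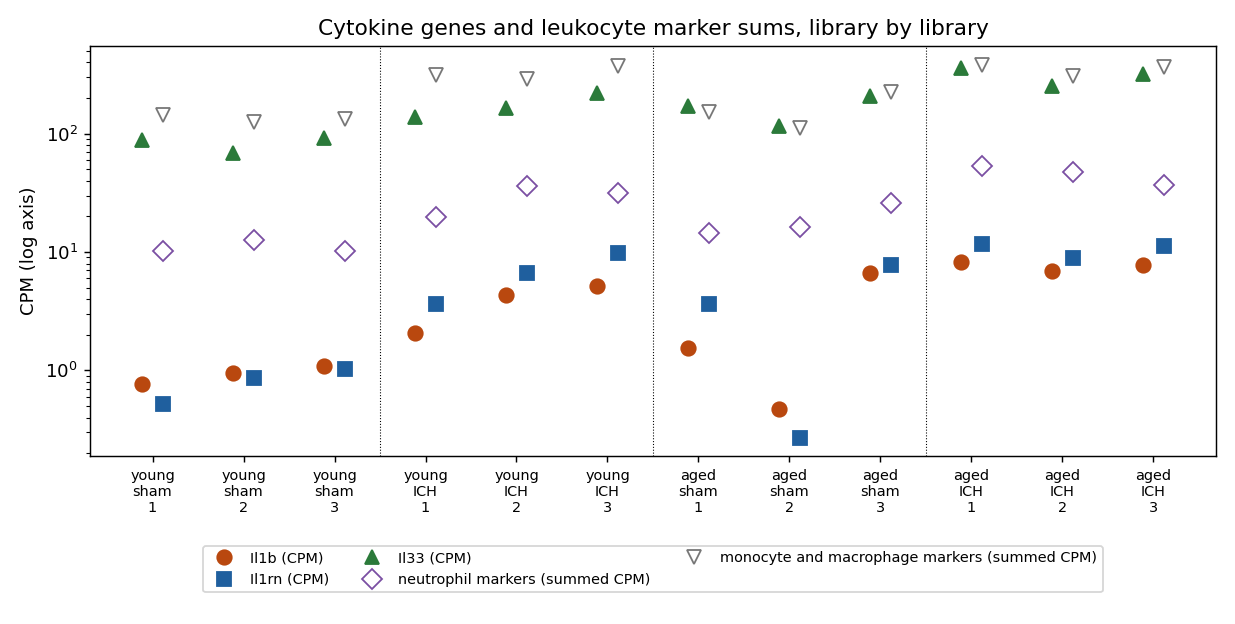
Il1b, Il1rn and Il33 in CPM and the summed CPM of 10 neutrophil and 10 monocyte and macrophage markers (log y axis) are plotted for each of the 12 libraries (x axis), with dotted lines between groups. Aged sham 3 sits near the ICH libraries for Il1b, at 6.62 CPM, and for Il1rn, at 7.73 CPM, while aged sham 2 sits below the young shams, at 0.472 and 0.27 CPM.

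The rest of the family was read from a list of 15 symbols, of which 11 were in the table and 7 passed the filter on low counts. Il18rap, the accessory chain of the IL-18 receptor, rose at both ages, from 0.817 to 2.70 CPM in young and from 0.883 to 2.87 CPM in aged mice. Its log2FC was 1.73 ± 0.29 (adjusted *P* = 0.00327) and 1.68 ± 0.29 (adjusted *P* = 0.00617, edgeR). The ligand-binding chain Il18r1 had log2FC of 1.51 ± 0.66 and 1.83 ± 0.77, which did not pass (adjusted *P* = 0.134 and 0.142, edgeR), with 64 counts in young ICH 1 against 3 to 19 in the other libraries. The same library had the highest sum of T cell markers, 14 CPM against 1.49 to 4.76 CPM elsewhere. Of the 5 T cell markers tested 1 rose in young mice and none in aged mice, against 9.89% and 7% of all genes. The part of T cells in the values of Il18r1 was not tested.

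Il1f9, which encodes the ligand IL-36γ, rose in young mice with a log2FC of 3.08 ± 0.94 (adjusted *P* = 0.041, edgeR), from 1 to 2 counts per sham library to 8 to 17 counts per ICH library. In aged sham 3 it had 30 counts, above every aged ICH library, and the aged log2FC was 0.80 ± 0.62 (adjusted *P* = 0.431, edgeR). The neuronal receptors Il1rapl1 and Il1rapl2, which act in synapse formation, fell at both ages. Their log2FC were -0.47 ± 0.13 and -0.62 ± 0.16 in young (adjusted *P* = 0.0255 and 0.0204) and -0.45 ± 0.13 and -0.58 ± 0.16 in aged mice (adjusted *P* = 0.0384 and 0.0378, edgeR). The summed striatal neuron markers given above overlapped between sham and ICH libraries at both ages, with none of the 8 called. All 8 had a log2FC below 0 at both ages, with a median of -0.95 in young and -1.11 in aged mice. The part of striatal neurons in the values of Il1rapl1 and Il1rapl2 was not tested.

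The IL-36 receptor gene Il1rl2 had log2FC of 0.52 ± 0.21 and 0.36 ± 0.20, and Sigirr, a negative regulator of the family, of 0.52 ± 0.21 and 0.15 ± 0.21. None of these passed. Il1f6 and Il1f10 had 0 counts in all 12 libraries, where 3 counts, the limit a count of 0 allows, are at most 0.106 CPM. Il1f8 had 1 count in 1 library and Il1f5 had 1 to 8 counts per library. In all, 2 of the 7 tested genes rose and 2 fell in young mice, against 9.89% and 9.23% of all genes. In aged mice 1 rose and 2 fell, against 7% and 6.15%. Without young sham 2 or young ICH 3 the young count was 1, and without aged sham 1 or 2 or aged ICH 1 or 3 the aged count was 1.

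Of 30 genes that process IL-1 or signal from its receptors, all were tested, and 13 rose and 3 fell in young ICH vs. young sham. In aged ICH vs. aged sham 10 rose and 2 fell. The shares of all genes called are those given above for the members as higher, and 9.23% in young and 6.15% in aged mice as lower. The median log2FC of the list was 0.10 and 0.11. Myd88, the adaptor of the family's receptors, rose by 1.12 ± 0.26 in young and 1.23 ± 0.26 in aged mice on the log2 scale (adjusted *P* = 0.0122 and 0.0123, edgeR). Nlrp3, the inflammasome sensor, had log2FC of 1.17 ± 0.31 and 1.03 ± 0.30, and Casp4, the caspase of the noncanonical inflammasome, of 1.35 ± 0.37 and 1.27 ± 0.36, and all of these passed. Mapk8, which encodes the kinase JNK1, fell by 0.51 and 0.33, and Ube2n, a ubiquitin-conjugating enzyme of the pathway, fell by 0.25 and 0.22. Tab3, a subunit of the TAK1 complex, fell by 0.32 in young mice.

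Of 20 genes known to be induced by IL-1 among other signals, 18 were tested, and 13 rose in young and 12 in aged mice, with none lower. Of all genes, 9.89% were called as higher in young and 7% in aged mice. This list was chosen with earlier results of these data known. The median log2FC of the target genes was 1.62 and 1.45. Cxcl2, a neutrophil chemokine, had log2FC of 4.01 ± 0.94 in young and 3.38 ± 0.80 in aged mice (adjusted *P* = 0.0139 and 0.0201, edgeR). Lcn2, an acute-phase gene of reactive astrocytes and neutrophils, had 3.10 ± 0.52 and 2.88 ± 0.52, from a mean of 22.3 to 191 CPM in young and of 21.4 to 158 CPM in aged mice. Csf3, which encodes the granulocyte growth factor G-CSF, passed in young mice at 3.81 ± 1.14, and Il6 passed at both ages, at 2.50 ± 0.49 in young and 2.97 ± 0.44 in aged mice. When single libraries were left out, the aged counts of signalling and target genes were less stable than that of the members, which stayed between 3 and 5. Without young sham 2 or young ICH 3 the young calls were 8 or 9 signalling and 7 or 8 target genes. Without aged sham 1 or 2 the aged calls were 4 and 4 signalling and 4 and 7 target genes, and without aged ICH 1 or 3 they were 1 and 3 signalling and 3 and 7 target genes.

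Other genes with patterns like those of the members were listed by Pearson r of log2 CPM over the 12 libraries, among 16582 genes with a mean CPM of at least 1. These are descriptions of libraries that share groups. The closest to Il1b were Il1rn (r = 0.968), Igsf6 (r = 0.967) and Clec4d (r = 0.966), and the closest to Il1rn were Lilrb4a (r = 0.98), Mefv (r = 0.979) and Clec4e (r = 0.977). After subtracting group means, these genes still had r of 0.919 to 0.986 with their member. Within groups, Il1b and Il1rn were spread most in aged sham, at 0.472 to 6.62 and 0.27 to 7.73 CPM. The part of the aged sham libraries in these r values was not tested. For Il1r1 the closest genes were Btf3 (r = 0.984), Il6ra (r = 0.981) and Myl12a (r = 0.98), and for Il1r2 Aldh1l1 (r = 0.968), Prkd2 (r = 0.966) and Knop1 (r = 0.963). With group means subtracted these values fell to between 0.643 and 0.871.

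Il33 was closest to Oas2 (r = 0.98), Zc3hav1 (r = 0.978) and Col2a1 (r = 0.977), and Il18bp to Lrrc32 (r = 0.962), Il11 (r = 0.961) and Tap2 (r = 0.958). The closest genes to Il1rap were Msrb1 (r = 0.935), Cdc6 (r = 0.93) and Ibtk (r = 0.92). Lower values were found for Il18, with Arhgap27 (r = 0.917), Slc27a1 (r = 0.883) and Apoe (r = 0.879), for Il1a, with Adam10 (r = 0.896), Nup107 (r = 0.893) and Pcdhgb2 (r = 0.881), and for Il1rl1, with AA465934 (r = 0.882), Fbn2 (r = 0.843) and Zfp595 (r = 0.842). Among the members themselves, Il1r1 and Il1r2 had r of 0.946 over the 12 libraries, but 0.41 with group means subtracted. Il33 had r of 0.896 with Il1b and 0.894 with Il18bp, and 0.772 and 0.548 with group means subtracted.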

How the data were processed

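Bulk RNA-seq of 12 libraries, 3 per group, was used. The groups and replicate numbers were taken from the sample titles and characteristics. The authors aligned paired reads to GRCm38.p6 with HISAT2 and counted them per gene with featureCounts of the Subread package, and deposited raw counts and FPKM for 54833 genes. No source used here gives the strand setting. Columns of the authors' own comparisons, with fold changes and *P*-values, were not used.

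Counts were tested with edgeR 4.0.16 (limma 3.58.1, R 4.3.3), quasi-likelihood, TMM normalization, all 12 libraries in 1 fit of 4 groups, for the 21495 genes kept by filterByExpr with a minimum count of 10. Replicates are pools, so *P*-values measure the spread between pools. SE was |log2FC| over the square root of the F statistic. Alternatives were DESeq2 1.42.0, its size factors, other filters, limma on log2(FPKM + 1) and log2(FPKM + 0.1), fits of 2 groups, a replicate block and leaving out libraries. The code was tested on simulated data. No 2 libraries of a group were as close as sampling noise, with chi-square per degree of freedom of 9.25 or more. Ratios were tested by two-sided exact permutation (scipy 1.17.1). Positions came from RefSeq and GENCODE vM21, both GRCm38.

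The members and lists were chosen with earlier results of these data known. Named were all members, every other family gene tested, up to 3 signalling and 3 target genes in each direction with the largest log2FC among those called in each ICH comparison, and the 3 genes most like each member.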

Additional observations from a re-analysis of the deposited data

Results flagged for a closer look

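The log2FC of Il1rl1 after ICH had opposite signs, 0.65 in young and -0.29 in aged mice, and neither was called. Every young ICH library, at 0.551 to 0.766 CPM, lay above the young sham mean of 0.42 CPM, and every aged ICH library, at 0.44 to 0.697 CPM, lay below the aged sham mean of 0.701 CPM. Single libraries overlapped at both ages, however. Young sham 2, at 0.603 CPM, was above young ICH 1, at 0.551 CPM. Aged sham 1, at 0.53 CPM, was below aged ICH 1 and 2, at 0.697 and 0.576 CPM. The aged minus the young log2FC was -0.94 ± 0.46, which did not pass in edgeR (unadjusted *P* = 0.0626, adjusted *P* = 1). This difference ranged from -1.28 to -0.72 when single libraries were left out. The aged log2FC became 0.11 without both aged sham 2 and 3, which left aged sham 1 alone in that group. Counts of 9 to 30 per library limit the precision.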

How the results depend on the processing

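Of 1135 values of single members under the alternatives, 1046 kept their direction and side of the threshold, 26 lost and 24 gained a call, and 39 changed sign. The cause of these changes was not tested. For Il18 they were 0.06 and 0.06 in young and 0.01 and 0.01 in aged mice (limma on log2(FPKM + 1) and log2(FPKM + 0.1)). For Il1a they were -0.0014 and -0.0036 (DESeq2 size factors) and -0.0015 and -0.0039 (DESeq2) in the aged and the sham comparison, and -0.0009 with the replicate block in the sham comparison. The interaction of Il1b was 0.24 and 0.20 with the same limma fits.

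Members called in aged sham vs. young sham numbered 1 with DESeq2, 1 without a filter and 4 by the FC criterion, and in aged ICH vs. young ICH 1 and 1 with DESeq2 and the FC criterion. Other family genes called were 1 (log2(FPKM + 0.1)) and 2 (only the 2 groups) in young and 1 and 1 in aged mice with both limma fits. Signalling genes meeting the FC criterion numbered 7 at each age. The ratio of Il1rn to Il1b changed by 0.55 in young and -0.12 in aged mice on FPKM, and that of Il1r2 to Il1r1 by 0.44 in aged mice with a pseudocount of 0.5 CPM.

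Leaving out single libraries, members called ranged from 3 to 7 in young and 3 to 5 in aged mice, 0 to 1 between sham groups and 0 to 0 between ICH groups and for the interaction. Other family genes ranged from 1 to 4 and 1 to 3, signalling genes from 8 to 16 and 1 to 13, target genes from 7 to 14 and 3 to 14. The ratio differences ranged from 0.86 to 1.07 and -0.24 to 0.66 (Il1rn to Il1b), 0.46 to 1.03 and 0.69 to 1.01 (Il1r2 to Il1r1) and 0.26 to 0.56 and 0.55 to 0.81 (Il18bp to Il18) in young and aged mice. Signs changed within -0.14 to 0.05 (aged), -0.07 to 0.04 (young), -0.01 to 0.19 (sham) and -0.11 to 0.09 (interaction) for Il18, -0.21 to 0.20 (aged) and -0.21 to 0.21 (sham) for Il1a, -0.36 to 0.48 (sham) and -0.83 to 0.01 (interaction) for Il1r2, -0.07 to 0.20 (sham) for Il1rap, -0.37 to 0.03 (interaction) for Il33 and -1.15 to 0.86 (interaction) for Il1b.

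After seeing the data, 2 settings were added. Without the 3 libraries highest in choroid plexus markers, 3 members in young and 1 in aged mice were called, and signs changed to 0.06 for Il1r1 and -0.04 for Il18 in aged ICH vs. young ICH, -0.0005 for Il1a between shams and 0.09 for the interaction of Il33. Without both aged sham replicates 2 and 3, 1 member was called in aged mice, and signs changed to -0.32 for Il1a, 0.11 for Il1rl1 and 0.08 for Il18 in aged mice, -0.33 for Il1r2 and -0.04 for Il18 between shams, and 0.25 for Il1b and 0.11 for Il18 in the interaction.

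The replicate numbers did not pair the samples: deviations of same-numbered libraries correlated between -0.454 and 0.235. With the replicate block 4 members were called in young and 4 in aged mice, the young loss being Il18bp. Low counts limit Il1rl1, Il1f9 and Il18r1 most.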
